A study of Mus musculus with 17 samples.

Results

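This account follows the RNA pulled down with tagged POMC-neuron ribosomes from birth to weaning in mouse offspring whose dams ate a high-fat diet (HFD). It rests on 9 of the 17 libraries of the series, chosen by the labels' diet and age: 5 HFD libraries at postnatal day 0 (P0) and 4 at postnatal day 21 (P21). All offspring came from the Pomc-RiboTag line, in which ribosomes carry an HA tag in cells where the Pomc-driven recombinase is or was active. The dams received a diet with 45% fat from the age of 6 weeks, were mated 4 weeks later and kept that diet through P21. Mediobasal hypothalamus was homogenized and the tagged ribosomes with their RNA were pulled down with an HA antibody. Genes of myelin, astrocytes and other cells were also measured in this RNA, so its values are not of POMC neurons alone. The other 8 libraries, 5 at P0 and 3 at P21, came from offspring of dams on standard chow in the same line, and are used below only as values beside those of the HFD offspring. The labels number the libraries as biological replicates without saying which litters they came from, how many animals each one pooled, their sex or any library batch, so a p-value here speaks for the variation among these libraries only.

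POMC neurons of the arcuate nucleus sense leptin, insulin and nutrients. They cut the precursor pro-opiomelanocortin into alpha-MSH, a peptide that lowers food intake through melanocortin receptors, while neighbouring AgRP neurons make AgRP and NPY, which raise it. In rodents these circuits are born before birth but extend their projections, mature their synapses and gain much of their peptide content between birth and weaning, while glial cells of the hypothalamus multiply and begin to form myelin.

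The deposited table lists 15355 genes by symbol, in a CPM-like scale (called units below). Depth, as reads counted to these genes, was 26.6 ± 5.34 M reads (SD, n = 5) at P0 and 31.9 ± 0.706 M reads (n = 4) at P21, and a single read was worth 0.0293 to 0.0424 units. Changes are differences of log2(value + 1), P21 minus P0, a scale on which low genes appear to change less than they do. The threshold was a limma adjusted p under 0.05. The first principal component of the 9 libraries held 66.6% of the variance and separated the ages, with P0 at -71.3 to -28.9 and P21 at 66.4 to 75.4. Replicate 5 at P0 stood apart on it, at -28.9 against -71.3 to -59.3 in the other P0 libraries. Over 4831 genes whose mean log2 level in the other P0 libraries differed from P21 by more than 1, this library lay at a median of 0.31 of the way to P21. Each comparison was also fitted without this library.

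Of 14245 genes tested, 3521 rose (24.7%) and 3729 fell (26.2%), with a median log2 change over all tested genes of -0.05. Counts within the gene lists below are to be read beside these shares. Without P0 replicate 5, 3998 rose and 4121 fell. The values of the 2 ages did not overlap for 38.7% of the tested genes. Rescaling the columns to the same sum moved the all-gene median to -0.21 and the split to 2854 rises and 4575 falls, so the balance of rises and falls depends on the scaling. At a log2 change beyond 1, limma's treat test called 593 rises (4.16%) and 601 falls (4.22%). The largest rises included genes of myelin (Mobp, Mog, Mal, Mbp, Opalin and Fa2h) and genes of hypothalamic neurons (Cartpt, Pomc, Gpr101, Brs3 and Tac2), joined by Serpina3n, Stxbp3a and Susd2. The largest falls were in Fat4, Dcx, Cxadr, Trim67, Nrep, St8sia2, Lhx9, H19, Mex3a, Tnc, Gpc2, Vash2, Sbk1, Zic4 and Sox11, of which Gpc2 shares 55.6% of its exonic bases with the gene model Gm43720 on its own strand.

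Appetite genes rose steeply. Of 15 genes of POMC-neuron identity, 12 rose and 1 fell, with a median log2 change of 1.89, and of 7 genes of AgRP neurons and the NPY system 6 rose and none fell, with a median of 3.89. These lists share Npy1r, and Lepr, Mc4r, Glp1r, Htr2c and Insr are counted again among the satiety receptors below. Nr5a1, counted on the POMC-neuron list, is also a factor of the ventromedial nucleus. In a bulk pulldown of this kind, fewer cells of a type and less RNA per cell cannot be told apart. Pomc, on chr12 from 3954951 to 3960642 (mm10), was measured at 90.7, 246, 102, 181 and 1057 units in P0 replicates 1 to 5 and at 9818, 8268, 7460 and 8528 in P21 replicates 1 to 4. Every P21 library was above every P0 library, and P0 replicate 5 was the highest at P0. Mean Pomc was 335 ± 408 at P0 and 8518 ± 978 at P21, a log2 change of 5.31 (SE 0.52, adjusted p = 2.56e-06). Cartpt, the gene of the CART peptide released by many POMC neurons, was at 15.4, 11.6, 15.4, 16.7 and 7.93 at P0 and at 2761, 2139, 2287 and 1912 at P21. The P0 values of Cartpt stayed low in replicate 5 too, in contrast to Pomc, and the change was 7.33 (SE 0.20, adjusted p = 1.86e-11).

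**Figure D1:**
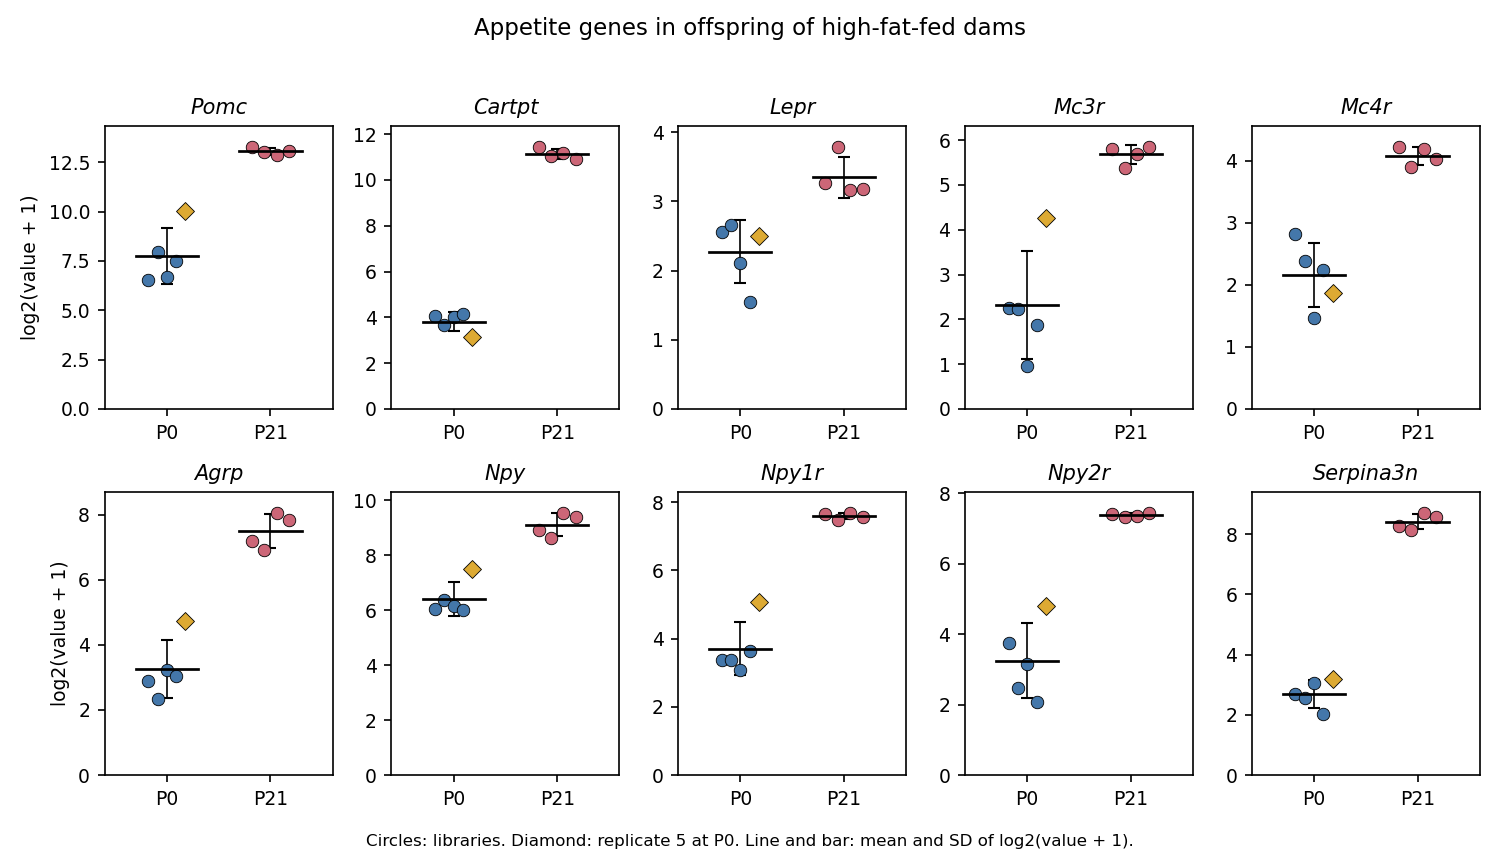
Values of 10 appetite genes in the 9 libraries, as log2(value + 1) against age (circles, libraries; diamond, P0 replicate 5; line and bar, mean and SD; n = 5 at P0 and 4 at P21). In all 10 panels the P21 libraries lie above the P0 libraries, and for Pomc replicate 5 at P0 is the highest of its group, at 1057 units.

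Among receptor genes on the POMC-neuron list, Mc3r, a melanocortin receptor, was at 3.78, 3.69, 0.95, 2.64 and 18.1 at P0 and at 55.1, 40.5, 50.7 and 56.4 at P21 (log2 change 3.37). Mc4r, the main melanocortin receptor for satiety, was at 1.75 to 6.03 and at 13.98 to 17.6 (1.93). Lepr, the leptin receptor, was low throughout, at 4.91, 5.34, 3.30, 1.92 and 4.65 at P0 and 8.66, 12.8, 7.97 and 8.02 at P21. The ages did not overlap for Lepr, and its change of 1.07 (SE 0.30, adjusted p = 0.00806) was smaller than those of the peptide genes. Glp1r, the GLP-1 receptor, rose by 2.50, and Asb4, whose product recruits substrates to a ubiquitin ligase, rose by 3.17 from 43.3 to 185 at P0 to 562 to 690 at P21. Tbx3, a transcription factor that maintains the identity of these neurons, was at 16.2 to 33.4 in 4 P0 libraries but at 219 in replicate 5, above the 77.6 to 193 at P21. Its change of 1.89 passed in limma (adjusted p = 0.0135) but not in edgeR (1.24, adjusted p = 0.138) or DESeq2 (1.26, adjusted p = 0.191) on the recovered reads. Insr, the insulin receptor, was the member that fell, from 29.9 to 48.05 at P0 to 17.01 to 28.3 at P21 (-0.89).

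Genes of the opposing hunger neurons rose as well. Agrp was at 6.39, 4.11, 8.31, 7.25 and 25.6 at P0 and at 147, 121, 265 and 231 at P21, and replicate 5 was again the highest at P0. Its change was 4.27 (SE 0.39, adjusted p = 1.35e-06). Npy was at 65.7, 81.1, 70.98, 62.9 and 179 at P0 and at 483, 396, 740 and 669 at P21, a change of 2.70 (SE 0.28, adjusted p = 4.19e-06). The NPY receptor genes Npy1r, Npy2r and Npy5r rose by 3.89, 4.13 and 3.73. Serpina3n, a serine protease inhibitor gene that is also a glial reaction gene, rose by 5.72, from 3.04 to 8.13 at P0 to 277 to 413 at P21.

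Other peptide genes of the mediobasal hypothalamus moved in the same direction for the most part, with 14 of 21 higher and 1 lower (median 1.43). Tac2, the neurokinin B precursor of neurons that drive puberty, rose by 4.79, from 1.32 to 3.58 at P0 to 62.9 to 106 at P21. Hcrt, the orexin precursor of the lateral hypothalamus, rose by 3.67, with P21 replicate 4 at 29.97 and the other P21 libraries at 118 to 171. Oxt, the oxytocin precursor, rose by 2.24, but its 11.4 in P21 replicate 4 lay below the highest P0 value of 14.4. Pdyn, the dynorphin precursor, rose by 2.33 with P0 replicate 5 at 53.3 and the other P0 libraries at 5.27 to 10.7. Kiss1 (1.81) shares all its annotated exonic bases with the gene model Gm28040, so its reads may not be its own. Gpr101, an orphan receptor of the hypothalamus, rose by 5.27, and Brs3, the bombesin-like receptor of energy-balance neurons, by 4.90. Of 19 genes for satiety and hormone receptors, 13 rose and 4 fell (median 1.21). Esr1, the estrogen receptor alpha, rose by 2.98 and Thrb, a thyroid hormone receptor, by 2.28, while Igf1r, the IGF-1 receptor, fell by 1.63 and Thra by 0.80.

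The machinery that cuts, packs and folds secreted peptides rose with the peptides. Of 17 genes of peptide processing and dense-core granules, 14 rose and 1 fell (median 1.41). Pcsk1, the convertase that makes the first cuts in the precursor, was at 1.17, 2.88, 8.44, 7.61 and 37.5 at P0 and at 137, 96.4, 90.7 and 109 at P21. Replicate 5 was the highest at P0 and below every P21 library, and the change was 3.82 (SE 0.59, adjusted p = 0.000126). Pcsk2, the convertase that releases alpha-MSH precursors, was at 53.3 to 88.9 at P0 and 189 to 237 at P21 (1.69). Cpe, the carboxypeptidase that trims the cut ends, was already at 1217 to 1466 in 4 P0 libraries and at 2094 to 2488 at P21, a change of 0.63 with P0 replicate 5 (2220) inside the P21 range. Pam, which amidates peptide ends, rose by 2.16, Scg2, a granin of the granule core, by 2.42, Vgf by 3.48, Ptprn, a granule membrane protein, by 3.19 and Resp18 by 3.22. Dbi, a diazepam-binding protein that is abundant in glia, was the member that fell (-1.06). Its ages overlapped, at 372.9 to 969 at P0 and 171.9 to 475.5 at P21.

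Of 25 genes of the unfolded protein response and the chaperones of the endoplasmic reticulum, 19 rose and 2 fell (median 1.16). Hspa5, the chaperone BiP, was at 152, 184, 165, 171 and 508 at P0 and at 1505, 1159, 1315 and 1227 at P21. Replicate 5 was the highest at P0 and less than every P21 library, and the change was 2.62 (SE 0.29, adjusted p = 6.63e-06). Sdf2l1, a partner of BiP, rose by 3.20, Hsp90b1 by 1.79, Pdia6 by 1.77 and Pdia3 by 1.35. Both fallers were targets or mediators of the integrated stress response: Atf4, its transcription factor, fell by 0.63, and Trib3, a pseudokinase induced by it, fell by 1.31 at values of 0 to 6.76. The ages overlapped for both, with Atf4 at 82.5 in P0 replicate 5 and 93.3 in P21 replicate 1. The call for Trib3 did not pass in edgeR (adjusted p = 0.158) or DESeq2 (adjusted p = 0.0944) or without any of P0 replicates 1, 2 or 3 or P21 replicates 1 or 3 (adjusted p = 0.0751 to 0.122).

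Genes of immature neurons fell almost without exception. Of 23 genes on that list, 22 fell and none rose (median -2.01), and Dll1 (-0.95) did not pass. Dcx, the microtubule protein doublecortin of migrating neurons, was at 420, 544, 487, 424 and 396 at P0 and at 8.63, 6.35, 6.04 and 5.99 at P21. The ages were far apart, replicate 5 lay with its group, and the change was -5.88 (SE 0.16, adjusted p = 1.86e-11). Sox11, a transcription factor of newborn neurons, was at 302, 493, 359, 336 and 108 at P0 and 9.51 to 16.5 at P21, and here replicate 5 was the lowest at P0 (-4.33). Sox4, its relative, fell by 3.47, although 54.6% of its exonic bases lie under the antisense gene model Gm26735. Nrep fell by 5.16 and Dpysl3, a growth cone protein, fell by 4.03. Stmn2, a growth cone regulator, kept a high level, from 2223 to 2660 at P0 to 863 to 1220 at P21 (-1.27). Fabp7 and Nes, markers of radial glia and progenitors, fell by 4.30 and 3.43, and in Nes replicate 5 was at 10.2 against 43.7 to 73.6 in the other P0 libraries.

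**Figure D2:**
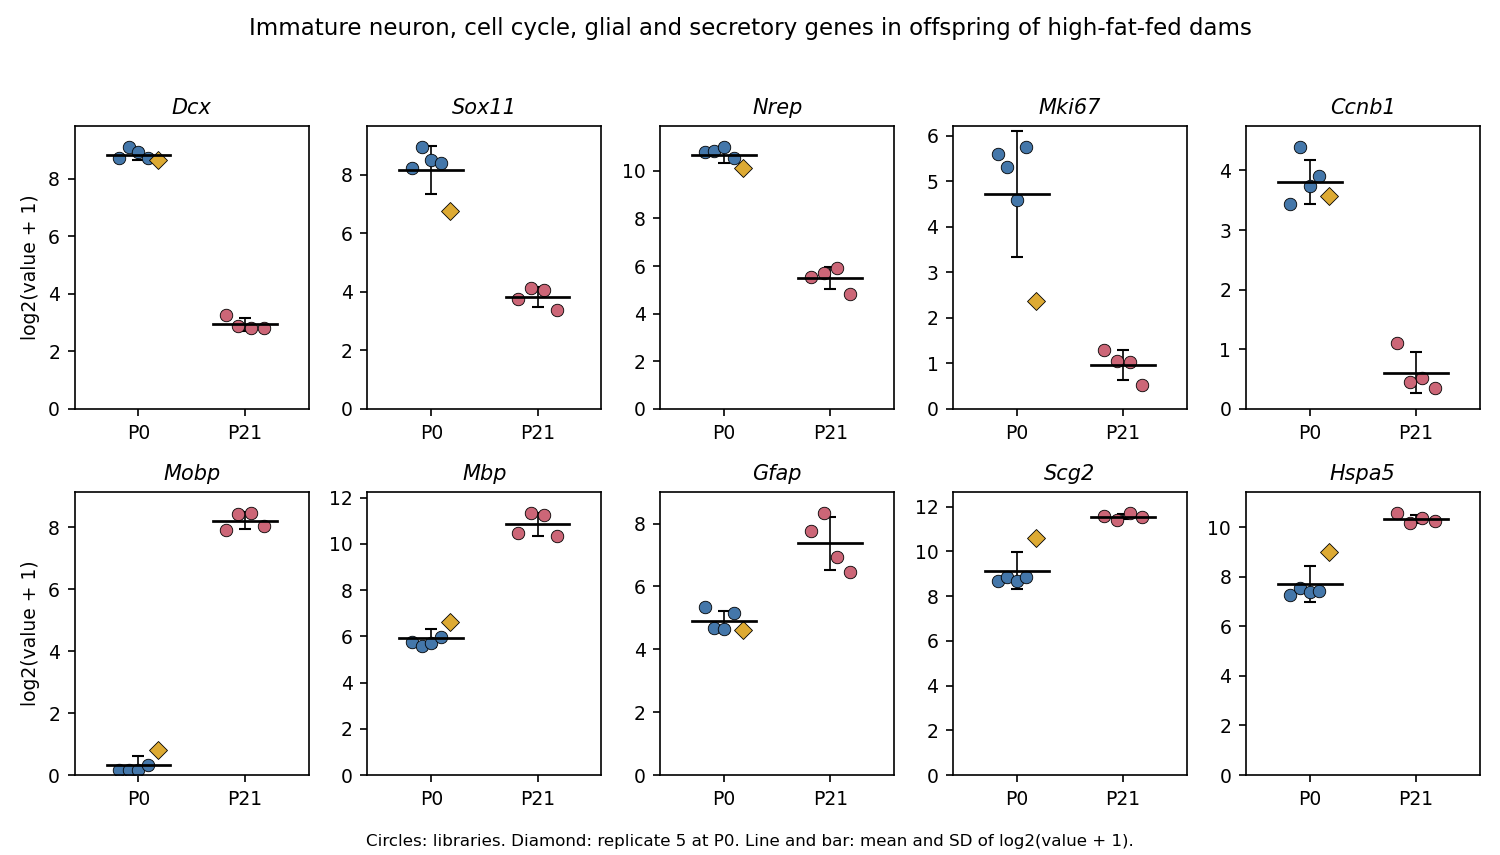
Values of 10 immature neuron, cell cycle, glial and secretory genes in the 9 libraries, as log2(value + 1) against age (circles, libraries; diamond, P0 replicate 5; line and bar, mean and SD; n = 5 at P0 and 4 at P21). The ages do not overlap in any panel, while replicate 5 at P0 lies nearest to P21 for every gene but Ccnb1 and Gfap, for Dcx by a small margin.

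Cell cycle genes fell in the same interval. Of 40 tested, 31 fell and none rose (median -1.69, and -0.88 at a pseudocount of 5). Mki67, the Ki-67 proliferation marker on chr7 from 135689784 to 135716361, was at 47.5, 38.8, 23.2, 52.9 and 4.21 at P0 and at 1.47, 1.06, 1.05 and 0.43 at P21. Replicate 5 was far below the other P0 libraries, yet above P21, and the change was -3.75 (SE 0.55, adjusted p = 8.14e-05). Replicate 5 lay close to the rest of its group for the mitotic cyclin gene Ccnb1 and the mitotic kinase gene Cdk1, although it was the lowest P0 library for Cdk1. Ccnb1 was at 9.77, 19.96, 12.3, 13.9 and 10.9 at P0 and at 0.27 to 1.16 at P21 (-3.20), and Cdk1 was at 10.98, 14.2, 10.6, 13.01 and 10.2 at P0 and at 0.43 to 1.26 (-2.69). Rrm2, a subunit of the enzyme that makes DNA precursors, was at 10.97 to 18.9 at P0 and at 0.67 to 3.26 at P21 (-2.77). Top2a, the topoisomerase of dividing cells, was at 7.49 to 10.2 at P0 and at 0.10 to 0.25 in 3 P21 libraries, but at 4.10 in P21 replicate 2 (-2.58). Pcna (-0.27) and the licensing gene Mcm4 (0.30) did not pass.

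The RefSeq promoters (GRCm38.p6) of the 4 cell cycle genes with the largest falls are given here, since these genes fell together and such promoters are known for shared motifs. Each line runs 5' to 3' along the gene's strand, from 250 bases before to 50 after the start. Capitals mark matches to CCAAT and TTTGAA on either strand (ATTGG and TTCAAA on the reverse).
Mki67 promoter, chr7:135716330-135716629, minus strand: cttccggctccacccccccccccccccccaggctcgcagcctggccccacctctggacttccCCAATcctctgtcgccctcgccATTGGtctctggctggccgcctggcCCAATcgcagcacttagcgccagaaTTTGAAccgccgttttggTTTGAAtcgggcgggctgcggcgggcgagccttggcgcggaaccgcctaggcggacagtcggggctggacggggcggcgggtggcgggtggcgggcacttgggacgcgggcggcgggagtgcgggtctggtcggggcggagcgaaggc
Ccnb1 promoter, chr13:100786437-100786736, minus strand: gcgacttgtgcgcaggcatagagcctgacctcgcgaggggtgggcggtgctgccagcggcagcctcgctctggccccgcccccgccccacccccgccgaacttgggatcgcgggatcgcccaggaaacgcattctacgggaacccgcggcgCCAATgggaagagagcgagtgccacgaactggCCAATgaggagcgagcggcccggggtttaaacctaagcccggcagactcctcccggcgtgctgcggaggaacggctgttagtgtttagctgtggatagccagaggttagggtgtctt
Rrm2 promoter, chr12:24708004-24708303, plus strand: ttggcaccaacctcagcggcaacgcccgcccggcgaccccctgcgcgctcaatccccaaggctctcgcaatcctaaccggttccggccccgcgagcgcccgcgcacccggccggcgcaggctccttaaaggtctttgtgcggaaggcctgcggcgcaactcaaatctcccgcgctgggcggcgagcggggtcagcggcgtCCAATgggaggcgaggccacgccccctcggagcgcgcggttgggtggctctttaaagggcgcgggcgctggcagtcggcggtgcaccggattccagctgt
Cdk1 promoter, chr10:69352863-69353162, minus strand: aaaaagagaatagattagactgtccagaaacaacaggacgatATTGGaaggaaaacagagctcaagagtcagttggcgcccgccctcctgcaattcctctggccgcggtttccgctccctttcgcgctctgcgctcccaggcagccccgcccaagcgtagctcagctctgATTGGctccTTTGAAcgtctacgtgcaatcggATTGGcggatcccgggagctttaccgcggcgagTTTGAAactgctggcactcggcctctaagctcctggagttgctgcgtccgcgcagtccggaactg
CCAAT is the NF-Y motif and TTTGAA the core of the cell cycle homology region. The CCAAT motif lay in 37.4% of the 32851 promoters of this length and in 21 of the 25 fallen cell cycle genes with a promoter in the table (84%). TTTGAA lay in 17.9% of all promoters and in 13 of those 25 (52%). Among the 10520 tested genes with a promoter in the table, 38.4% held CCAAT and 11% TTTGAA. Motifs of 8 bases of the kind bound by E2F, searched on both strands, were rarer: TTCCCGCC in 2.19% of all promoters and 2 of 25, TTTCCCGC, which overlaps it, in 1.07% and 2 of 25, and TTTGGCGC in 0.514% and 3 of 25. Among the tested genes these shares were 4.07%, 1.96% and 1.02%. None of these 8-base matches lay in the 4 promoters shown. A match describes these letters only.

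Genes of the fetal growth and RNA-binding program and of chromatin followed. Of 15 genes of that program, 9 fell and 4 rose (median -1.13, with -2.06 in edgeR, -2.04 in DESeq2 and -0.70 at a pseudocount of 5). H19, an imprinted non-coding RNA, was at 29.4, 112, 53.5, 41.4 and 12.8 at P0 and at 0 to 0.96 at P21 (-4.89). The RNA-binding genes Igf2bp2 and Igf2bp3 fell by 2.51 and 2.61, and Lin28b, which blocks let-7 maturation, fell by 1.67, as did Igf2bp1, at 0.68 to 6.27 at P0. Igf2 fell by 2.05, but 62.8% of its exonic bases are shared with the gene model Gm49394. In contrast Plagl1, an imprinted transcription factor gene, rose by 2.24, from 37.7 to 67.3 at P0 to 206 to 275 at P21, and the imprinted genes Dlk1 and Peg3 rose by 1.36 and 1.06. Of 27 genes of DNA methylation and chromatin, 18 fell and 1 rose (median -1.02). Dnmt3a, a de novo DNA methyltransferase, was at 236, 197, 146, 177 and 176 at P0 and at 32.3, 38.7, 45.8 and 41.2 at P21 (-2.20). The genes for the 5-methylcytosine oxidases Tet1, Tet2 and Tet3 fell by 2.47, 2.30 and 2.14, and Ezh2, a Polycomb methyltransferase, fell by 2.42. The Polycomb gene Ezh1 was the riser (0.56), a call lost without any of 6 libraries taken in turn (adjusted p = 0.0615 to 0.128), without the intensity trend (adjusted p = 0.0538) and under equal column sums (adjusted p = 0.116). Dnmt1, which copies methylation, fell by 0.69 with overlapping ages, a call lost without P21 replicate 2 (adjusted p rounding to 0.05).

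Of 20 transcription factors of the hypothalamic lineage, 8 fell and 4 rose (median -0.60). The median was -0.36 without P0 replicate 1, -0.35 without P0 replicate 2 and -0.23 with a pseudocount of 5, but -0.89 in edgeR and -0.88 in DESeq2. In edgeR and DESeq2 Six3 and Prdm12 were the 2 rises called, and DESeq2 gave no p for Nr5a1. Lhx1 fell by 3.44, Dlx2 by 2.97, Dlx1 by 2.75 and Sim1 by 2.14. Lhx9 and Zic4, outside that list, fell by 4.97 and 4.34. The risers were Six3 (1.37), Prdm12 (1.66) and, beside Tbx3, Nr5a1 (1.35), a factor of the ventromedial nucleus, which was at 61.3 in P0 replicate 5 against 8.63 to 13.9 in the other P0 libraries. Nr5a1 did not pass in edgeR (adjusted p = 0.131) or without P0 replicate 3 (adjusted p = 0.0506). Of 18 neuronal splicing regulators 9 fell and 3 rose. Ptbp1, which holds back neuronal splicing, fell by 1.26, Nova2 by 1.19, and Mbnl2, a muscleblind factor of later splicing, was at 29.9 to 50.9 at P0 and 270 to 343 at P21 (3.01).

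Receptor and channel genes changed subunit by subunit. Of 18 GABA-A and glycine receptor genes, 11 rose and 1 fell (median 0.96). Gabre and Gabrq, of the X-linked receptor cluster, rose most: Gabre was at 0.80, 2.29, 0.73, 1.84 and 3.45 at P0 and at 51.9, 31.8, 45.9 and 48.9 at P21 (4.08), and Gabrq at 2.29, 0.30, 1.08, 1.20 and 6.93 and at 43.3, 34.8, 34.8 and 48.6 (3.90). Glrb, the beta subunit of glycine receptors, rose by 1.96 and Glra1, the adult alpha subunit, by 2.64, from at most 1.31 units, while Glra2, the fetal alpha subunit, fell by 1.97. Of 21 ionotropic glutamate receptor genes, 5 rose and 5 fell (23.8% each, near the shares of all tested genes). Their median of 0.05 ranged from -0.05 to 0.14 over the alternatives. It was below 0 at equal column sums (-0.04), with a filter above 5 units (-0.05) and without P0 replicate 3 (-0.03), P21 replicate 3 (-0.03) or P21 replicate 4 (-0.01). Without P0 replicate 5, 9 of them fell. Grin1, the obligatory NMDA subunit, rose by 1.5 and the AMPA subunit gene Gria1 by 1.51, while Grin3a fell by 1.74 and Grin2b by 0.85. Grin2a was at 0 to 5.40 at P0 and 0 to 1.69 at P21 and did not pass.

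Shares within a family were computed per exonic base, so that the subunits of 1 family can be compared. The Scn3a share of 4 neuronal sodium channel genes went from 47.9% ± 3.74 (SD, n = 5) to 18.7% ± 3.02 (n = 4), and the Scn1a share went from 7.38% ± 2.65 to 23.7% ± 2.94. Grin2b held 75.9% ± 6.49 of the GluN2 genes at P0 and 47% ± 15.7 at P21, with 28.1% in P21 replicate 4. Glra2 held 98.3% ± 0.685 of the glycine receptor alpha genes at P0 and 61.5% ± 12.2 at P21. These shares were chosen with their values known and are given as a description, with no test.

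**Figure D3:**
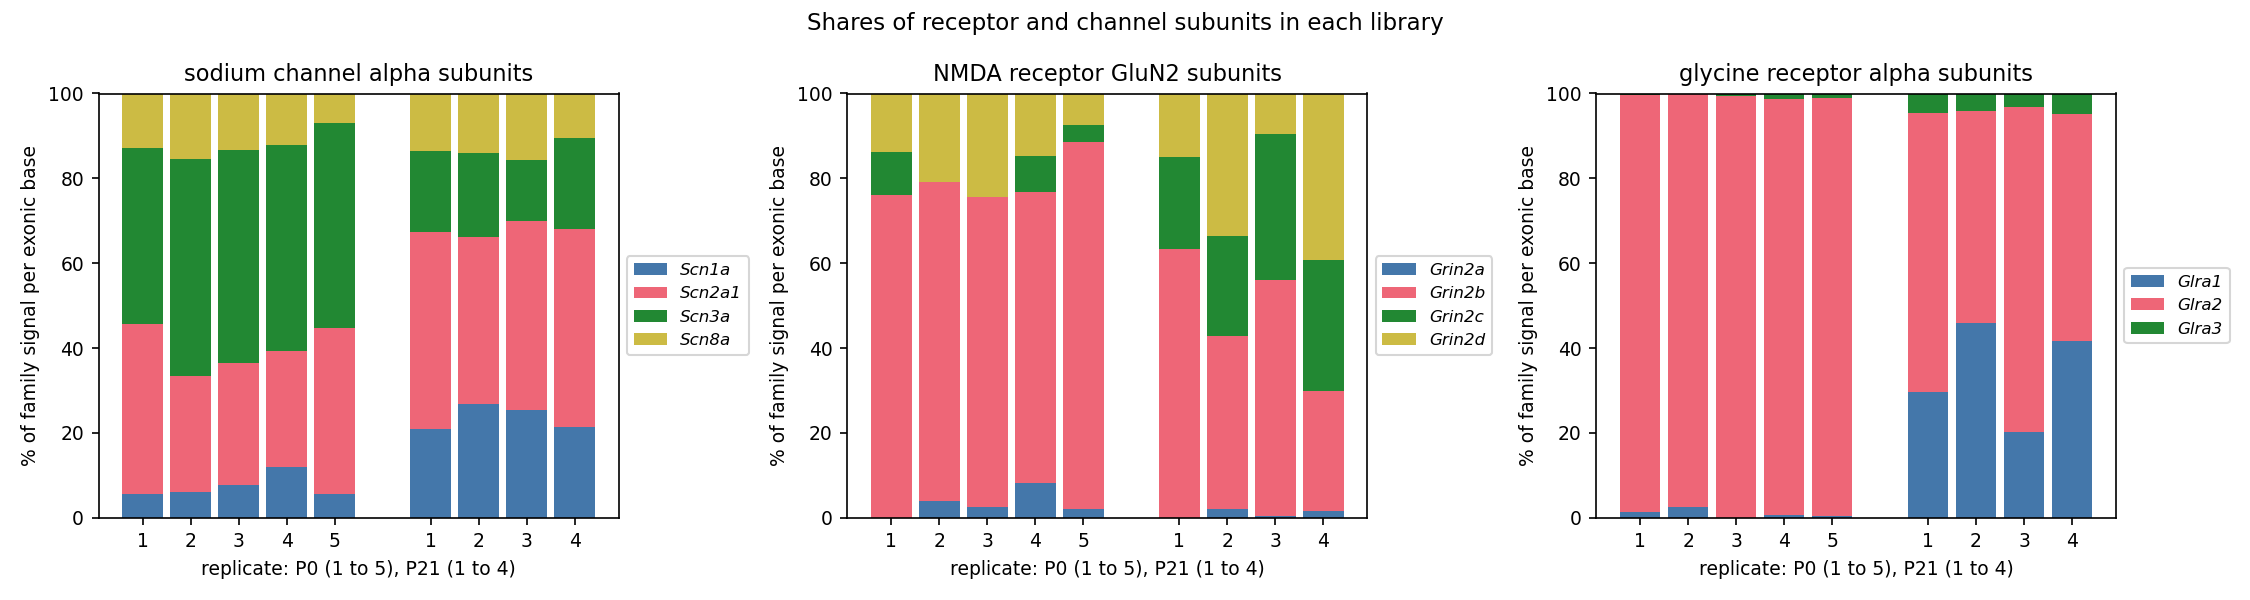
Share of each subunit gene in its family in each library, in percent of the family's signal per exonic base (bars, libraries; left block P0 replicates 1 to 5, right block P21 replicates 1 to 4). Scn1a takes a larger share and Scn3a, Grin2b and Glra2 a smaller one in every P21 library than in any P0 library.

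Among 27 potassium and HCN channel genes, 14 rose and 3 fell. Kcna1 rose by 3.19, from 2.17 to 7.96 to 37.2 to 63.4, and Kcnc2, a fast delayed rectifier, by 2.37. Among 24 sodium and calcium channel genes, 9 rose and 5 fell. Scn2b, an auxiliary sodium channel subunit, was at 2.90 to 9.24 at P0, at 81.1 to 117 in 3 P21 libraries and at 15.3 in P21 replicate 4 (3.32). Scn1a rose by 1.66 and Scn3a fell by 1.38. Slc12a5, the chloride exporter KCC2, was at 130, 95.1, 125, 119 and 276 at P0 and at 308, 308, 134 and 313 at P21. The ages overlapped, with P21 replicate 3 low and P0 replicate 5 high, and the change of 0.86 (adjusted p = 0.0295) did not hold without any 1 of 7 libraries, P0 replicates 1 to 4 and P21 replicates 1, 2 and 4 (adjusted p = 0.0556 to 0.0823), nor under equal column sums (adjusted p = 0.0708) or without the intensity trend (adjusted p = 0.0562). Slc12a2, the importer NKCC1, was at 11.1 to 28.99 and 27.9 to 41.9 (0.73), a call lost without P0 replicates 3 or 4 or P21 replicates 1, 3 or 4 (adjusted p = 0.0539 to 0.0899) and under equal column sums (adjusted p = 0.101). Of the 14 genes of chloride transport and transmitter identity 6 rose and 1 fell, and 3 rose without P21 replicate 4 or at equal column sums. The GABA-synthesizing genes Gad1 and Gad2 rose by 1.16 and 1.38, and Gad1 was at 104 to 162 at P0 and 291 to 303 at P21.

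Of 29 presynaptic genes, 16 rose and 5 fell. Snap25, a core protein of vesicle fusion, was at 415, 379, 408, 417 and 710 at P0 and at 2211, 1902, 2483 and 1728 at P21 (2.18). Syn2, a synaptic vesicle phosphoprotein, was at 60.6 to 114 at P0, at 206 in P21 replicate 1 and at 502 to 650 in the other P21 libraries (2.33). Vamp1 rose by 1.92 and Syn1 by 0.91. The ages overlapped for Syn1, with P0 replicate 5 at 432 and P21 replicate 3 below it. The vesicle priming gene Unc13a fell by 2.39, from 235 to 698 at P0 to 55.8 to 96.7 at P21. Its relative Unc13b was at 2765 in P0 replicate 5 against 182 to 372 in the other P0 libraries and 270 to 546 at P21, and did not pass. Of 25 postsynaptic genes 10 rose and 4 fell, with a median of 0.11 that ranged from -0.06 at equal column sums to 0.42 without P0 replicate 5. Without that library 7 of them fell, and without P21 replicate 2 6 rose. Camk2a, a kinase of plasticity, was at 26.6 to 85.2 at P0 and at 159 to 163 at P21 (1.99), and Nrgn rose by 2.11. Calb1, the calcium buffer calbindin, was at 71.5 to 134 at P0 and 850 to 1127 at P21 (3.47).

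Of 39 genes of axon guidance and adhesion, 24 fell and 4 rose (median -0.81), and 2 rose without P21 replicate 2 or 4 or at equal column sums. St8sia2, the enzyme that adds polysialic acid to NCAM in the young brain, was at 304, 395, 343, 294 and 334 at P0 and at 6.21, 9.25, 8.31 and 11.9 at P21 (-5.10). The Eph receptor genes Epha3 and Ephb1 fell by 2.93 and 2.28, Ntn1, the guidance cue netrin-1, by 2.14 and the semaphorin receptor gene Nrp1 by 1.12. Nfasc, which builds the axon initial segment and the node, rose by 1.05. Cytoskeletal genes were exchanged, with 9 of 23 higher and 11 lower. Tubb2b was at 930 to 1359 at P0 and 102 to 115 at P21 (-3.40), and Tuba1a fell by 1.88, while Tubb4a rose by 1.00 and Tuba4a by 3.76. Reads of these near-identical tubulins may be split between copies, 26.2% of the exonic bases of Tuba1a are shared with Gm49450 on its strand, and 37.3% of the exonic bases of Tuba4a lie under Stk16 on the opposite strand. Mapt, the microtubule protein tau, fell by 2.07, from 1714 to 2269 to 402 to 486, and Nefh, the heavy neurofilament, rose by 2.26.

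Of 22 genes of perineuronal nets and matrix, 14 fell and 4 rose (median -1.65, and -0.92 at a pseudocount of 5). Tnc, the young-brain matrix protein tenascin-C, was at 42.3, 63.4, 74.8, 54.1 and 22.7 at P0 and at 0.46, 1.82, 1.32 and 0.17 at P21 (-4.74). The chondroitin sulfate proteoglycan genes Ncan and Vcan changed by -2.66 and -2.79. Hapln4, a link protein of mature nets, was at 2.90 to 8.21 at P0 and 43.8 to 79.02 at P21 (3.13). Acan, on the same list, was below the filter and not tested. Collagen genes fell, Col4a1 of the basement membrane by 3.25, Col3a1 by 2.55 and Col1a2 by 2.48. Of 13 genes of fibroblasts and meninges, 9 fell and none rose (median -2.05), and the summed level of that list was 306 to 897 at P0 and 123 to 166 at P21. The part of those cells in the falls of the collagen genes was not tested.

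Markers of other cells of the tissue moved with age. Of 19 genes of the oligodendrocyte lineage, 15 rose and 2 fell (median 3.51), and their summed level went from 412 to 540 at P0 to 4350 to 8060 at P21. Mobp, a myelin protein, was at 0.12, 0.13, 0.13, 0.24 and 0.76 at P0 and at 239, 343, 350 and 265 at P21 (7.88, SE 0.24, adjusted p = 4.26e-11). Mbp, the myelin basic protein, was at 52.6, 46.6, 51.97, 62.5 and 96.8 and at 1403, 2567, 2425 and 1299 (4.91). Mog, Mal, Opalin and Fa2h rose by 6.11, 5.43, 4.87 and 4.80, and Opalin was listed at 0 in 4 of the P0 libraries. The members that fell, Pdgfra (-1.31) and Cspg4 (-1.55), are used as markers of precursor cells, but Pdgfra is also on the fibroblast list above. In chow offspring neither passed in limma (Pdgfra -0.08, adjusted p = 0.851, and Cspg4 -0.06, adjusted p = 0.907). Whether precursor cells became fewer was not tested. Of 20 astrocyte genes, 14 rose and 4 fell, with a summed level of 2330 to 2980 at P0 and 4060 to 6430 at P21. S100b rose by 3.95, Clu, the secreted chaperone clusterin, by 2.95, Gfap, the astrocyte filament, by 2.48, Aldoc by 2.33, Slc1a2, the glutamate transporter, by 2.04 and Aqp4, the water channel, by 0.93. The fallers included Mfge8 (-1.93), Aldh1l1 (-1.41) and Hepacam (-0.99). The defining glial markers Mobp, Mbp and Gfap are thus far above 0 at P21, and their part in the rises described above was not tested.

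Of 17 genes of radial glia and tanycytes 6 fell, 3 rose and 8 did not pass (median -0.40). The summed level of that list was 1080 to 1940 at P0 and 396 to 489 at P21. Fabp7 alone made up 632 to 1272 units of it at P0 and 23.5 to 69.3 at P21.

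Of 17 microglial genes 5 rose (29.4%, close to the 24.7% of all tested genes), 12 did not pass and none fell. P2ry12 rose by 1.27, and the summed level was 213 to 282 at P0 and 289 to 443 at P21. Of 19 endothelial and mural genes 8 fell and 2 rose, with Cldn5, a tight junction protein of brain vessels, falling by 1.81. Of 12 choroid plexus and ependymal genes 6 fell and none rose. Ttr, transthyretin of the choroid plexus, was at 19.7, 529, 31.7, 117 and 549 at P0 and at 20.9, 13.5, 33.5 and 13.8 at P21, so that 2 P0 libraries carried most of it and 2 overlapped with P21 (-2.56). That call did not hold with limma's robust prior (adjusted p = 0.0643). Otx2, a transcription factor of the same epithelium, fell by 3.30, from 6.02 to 24.5 to 0.03 to 0.63. Of 4 pituitary genes tested, 1 rose and 1 fell, and Cga, the alpha subunit of pituitary hormones, was the riser (3.70), with P21 replicate 4 highest, at 44.3 against 9.33 to 19.1. Of Cga's exonic bases 32% overlap Platr9, which is antisense to it.

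Metabolic genes split. Of 25 genes of glycolysis and hypoxia, 18 rose and none fell (median 1.2). Eno2, the neuronal enolase, was at 134, 115, 135, 149 and 229 at P0 and at 1259, 1248, 1183 and 1151 at P21 (3.02, SE 0.18, adjusted p = 3.76e-08). Aldoa, Tpi1 and Ldha rose by 2.35, 2.10 and 1.31. Of 66 nuclear genes of oxidative phosphorylation, 32 rose and none fell (median 0.40), and 23 rose and 1 fell at equal column sums (median 0.23). Of 80 cytosolic ribosomal protein genes 36 fell and 2 rose (median -0.54). That count was 57 without P0 replicate 5, 23 without P21 replicate 4, and 51 at equal column sums, and reads of ribosomal protein genes can be shared with processed copies. Cpt1a, which brings fatty acids into mitochondria, was at 29.5, 22.2, 20.1, 25.98 and 23.6 at P0 and at 3.16, 4.92, 5.09 and 7.95 at P21 (-2.05). Of 25 genes of cholesterol synthesis and lipid metabolism, 4 rose (16%) and 6 fell (24%), against 24.7% and 26.2% of all tested genes.

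Of 26 genes of leptin and insulin signalling, 6 rose (23.1%) and 11 fell (42.3%), with a median of -0.44. Over all tested genes these shares were 24.7% and 26.2%. The docking protein genes of the insulin receptor parted: Irs4 was at 44.8, 56.1, 34.6, 52.8 and 212 at P0 and at 413, 331, 250 and 480 at P21 (2.49), and Irs1 at 62.7, 68.5, 41.8, 39.9 and 40.3 and at 8.59, 9.22, 12.2 and 5.56 (-2.39). Stat3, which carries the leptin signal to the nucleus, rose by 1.62, from 62.5 to 77.5 to 180 to 262. Of 15 immediate early genes 8 rose and 2 fell. Junb was at 2.80 to 5.41 at P0 and 57.2 to 69.4 at P21 (3.77), Fos at 3.36 to 7.60 and 48.3 to 97.3 (3.51), and Egr1 rose by 2.48, while Nr4a2 fell by 1.53.

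**Figure D4:**
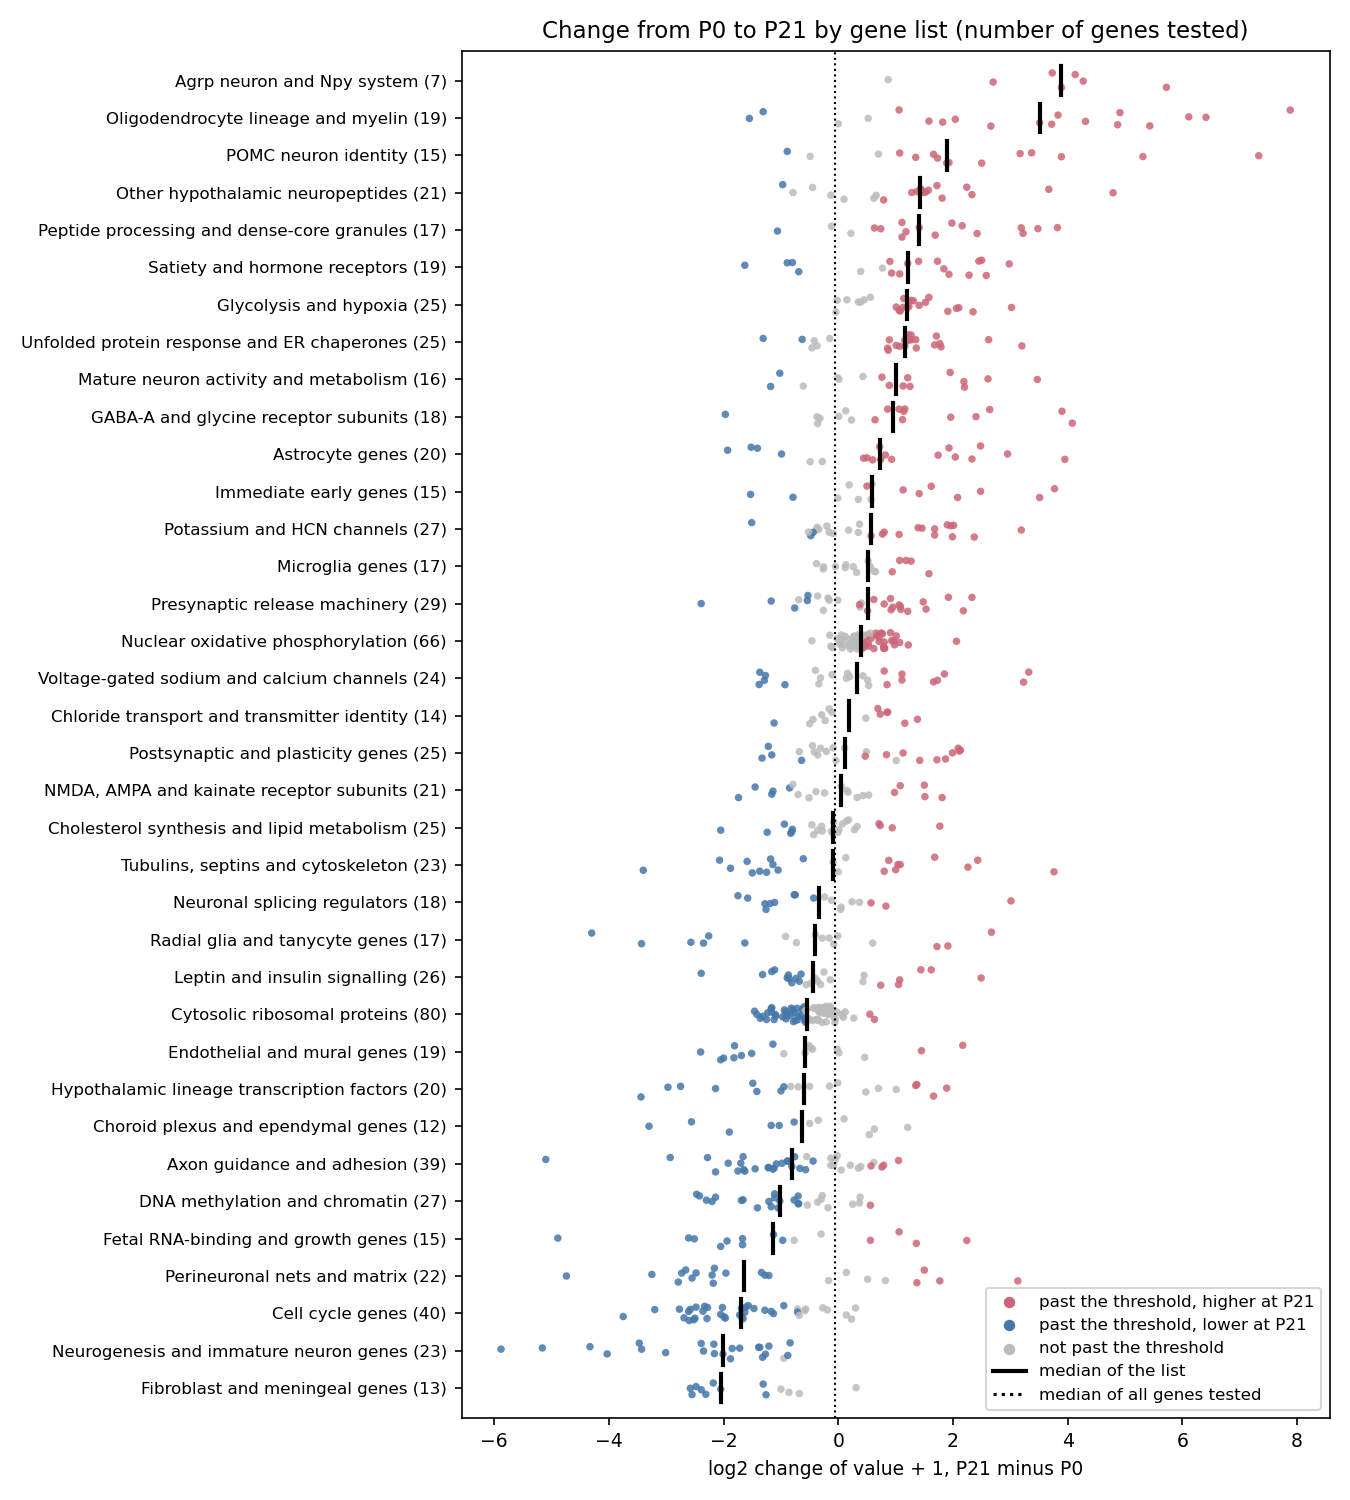
Log2 change of value + 1 from P0 to P21 for each gene of the 36 lists with at least 5 genes tested (points, genes, coloured by call; black bar, median of the list; dotted line, the median of all genes tested, -0.05). AgRP and NPY genes (3.89) and myelin genes (3.51) have the highest medians, and fibroblast (-2.05) and immature neuron genes (-2.01) the lowest.

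Some genes differed strongly among the P21 libraries. Dapk3, a death-associated protein kinase, was at 4.14, 4.62, 6.06, 3.84 and 2.11 at P0 and at 2.17, 76.1, 60.6 and 84.3 at P21, and Ano8 was at 0.68 to 4.35 and at 0.70, 33.4, 10.9 and 50.2. P21 replicate 1 lay within or near the P0 range for both, and the changes were 2.76 (adjusted p = 0.00737) and 2.39 (adjusted p = 0.0164). Hcn2, a pacemaker channel, was at 2.74 in that library against 13.8 to 42.7 in the other P21 libraries (1.96). The calls for Ano8 and Hcn2 were lost without P21 replicate 2 (adjusted p = 0.0608 and 0.0580) and without P21 replicate 4 (adjusted p = 0.0639 and 0.0598). At P0 these genes were higher in chow offspring than in any HFD library. Dapk3 was at 32.7 to 77.1 in chow P0, Ano8 at 22.3 to 57.7 and Hcn2 at 14.7 to 29.6. In chow P21 they were at 7.86 to 68.5, 5.79 to 37.55 and 14.8 to 38.1. Dapk3, Ano8 and Hcn2 were named after their values had been seen.

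The comparison with chow offspring asks whether the change from birth to weaning differed with the diet of the dams. In chow offspring 2669 of 14549 genes rose (18.3%) and 2582 fell (17.7%). Of 14109 genes tested in both, 2112 rose in both diets, which is 60.3% of the HFD rises and 80.3% of the chow rises, and 1996 fell in both, 54% of the HFD falls and 78% of the chow falls. Calls in opposite directions were made for 15 genes, Hepacam and Ano8 among them. Across these genes, which are not independent, the 2 changes had a Pearson r of 0.83.

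The diet by age interaction passed for 4 of 15037 genes, 2 in each direction (0.0133% of genes tested each), and 2290 had an unadjusted p under 0.05. Heatr8 was at 4.18, 2.20, 2.00, 3.32 and 4.39 in HFD P0, at 99.8, 92.8, 91.1 and 83.7 in HFD P21, and at 7.54 ± 1.43 (SD, n = 5) and 40.3 ± 1.46 (n = 3) in chow P0 and P21. Heatr8 rose in both diets, in the HFD offspring by 2.21 more on the log2 scale (adjusted p = 0.00618). Tmtc4, an endoplasmic reticulum mannosyltransferase, was at 25.8, 19.2, 25.8, 25.1 and 50.6 and at 95.7, 71.8, 68.9 and 94.3 in the HFD offspring, and at 41.1 ± 10.01 and 26.8 ± 8.21 in chow (interaction 2.14, adjusted p = 0.0314). Of its exonic bases 19.1% overlap an antisense gene model. Col11a2, a fibrillar collagen chain, was at 1.99 to 5.88 and 2.68 to 3.90 in the HFD offspring, with no change past the threshold, and at 0.224 ± 0.206 and 8.41 ± 2.76 in chow (-2.84, adjusted p = 0.00618). Hepacam, an adhesion protein of astrocytes, was at 84.7, 90.9, 76.7, 85.9 and 56.3 and at 32.4, 45.0, 35.6 and 42.9 in the HFD offspring, and at 58.3 ± 9.59 and 104 ± 29.8 in chow (-1.79, adjusted p = 0.0106). The Tmtc4 call was lost without any 1 of 7 libraries (adjusted p = 0.0545 to 0.0893) and without the intensity trend (adjusted p = 0.0594), and the Hepacam call without chow P21 replicate 2 (adjusted p = 0.0506) and without that trend (adjusted p = 0.0527). The next by p were Dazap2 (-1.14), Lhfp (-1.74), Carhsp1 (-1.17), Ethe1 (1.36), Dgkk (1.96) and Nfyb (1.07), which did not pass (adjusted p = 0.0596 to 0.0674). Without HFD P0 replicate 5 all 6 of these passed (adjusted p = 0.000905 to 0.0228).

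The number of interaction calls rested on single libraries. Without HFD P0 replicate 5 it was 301 higher and 256 lower. Without HFD P21 replicate 1 it was 27 and 9, without HFD P21 replicate 2 it was 2 and 12, and without chow P21 replicate 1 it was 15 and 32. Without any other library it was 1 to 3 higher and 1 to 4 lower. The appetite genes did not pass with all libraries. Interactions of Npy1r (2.21, adjusted p = 0.0792), Serpina3n (1.85, adjusted p = 0.088) and Asb4 (2.33, adjusted p = 0.0963) were nearer the threshold than those that follow. Cartpt was at 1912 to 2761 in HFD P21 and 391 to 834 in chow P21, with an interaction of 2.44 (adjusted p = 0.136), and Pomc at 1.66 (adjusted p = 0.403), Agrp at 1.77 (adjusted p = 0.348), Npy at 1.46 (adjusted p = 0.318) and Lepr at 0.62 (adjusted p = 0.558).

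**Figure D5:**
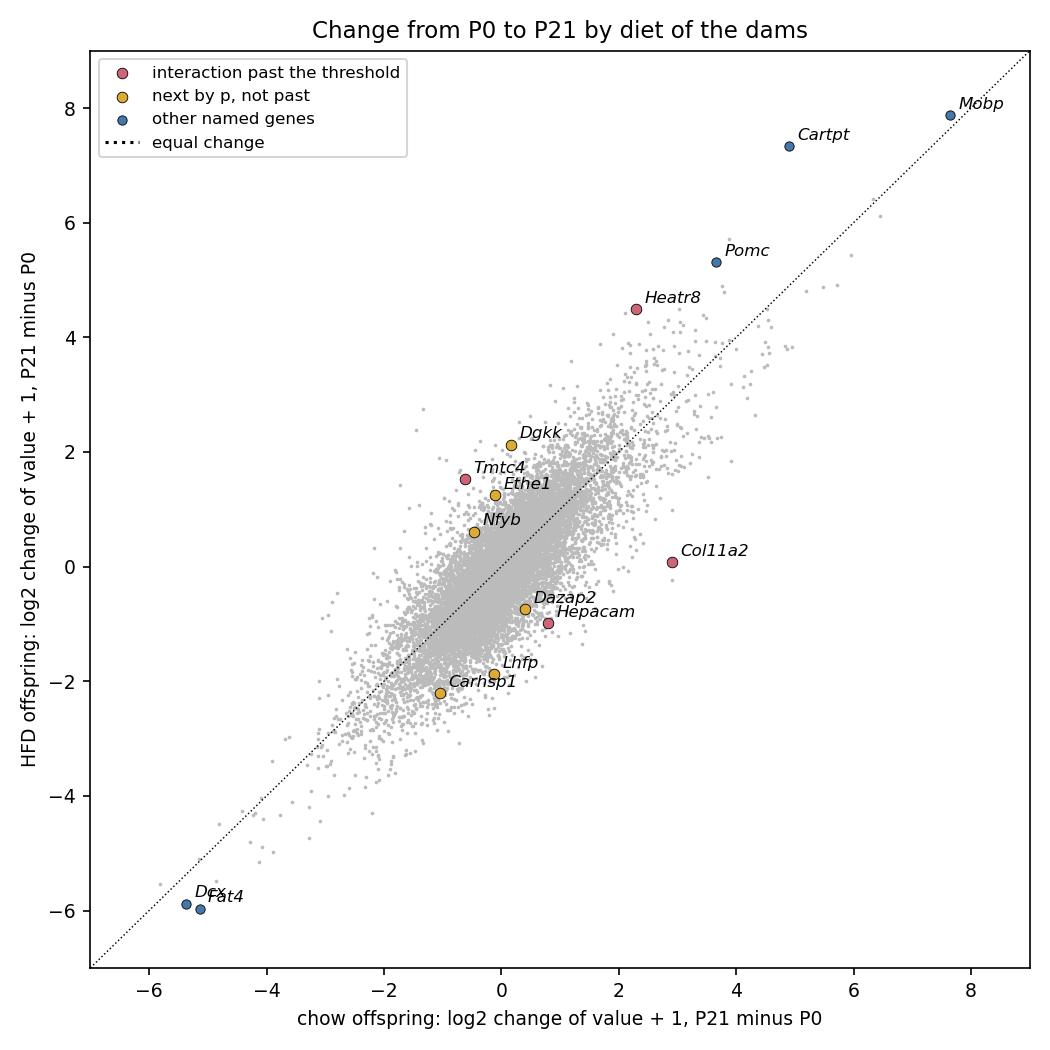
Log2 change of value + 1 from P0 to P21 in HFD offspring (vertical axis) against chow offspring (horizontal axis) for the 14109 genes tested in both (grey points; dotted line, equal change). Heatr8 (4.50 in HFD, 2.29 in chow) and Tmtc4 lie above the line and Col11a2 and Hepacam below it, each past the interaction threshold.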

How the data were processed

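Nextera XT libraries were read as single 50-base reads on an Illumina HiSeq, per the labels. Per the submitters' processing notes, FastQC, TopHat2 2.0.13, Picard 1.80, HTSeq 0.6.1, edgeR and the mm10 build were used. Whether the counting used strand is not given in the sources used here. Each deposited signal is a gene count divided by a library size by the authors, with 2 decimals. In every column at least 99.99% of the values lay within rounding of whole multiples of 1 read (23.8% to 38.3% for random values). Reads recovered this way served as counts for edgeR and DESeq2, although rounding blurs the steps in 11 of the 17 columns. Since the values are no counts, limma (trend) on log2(value + 1) was the main test, 2-sided with Benjamini-Hochberg adjustment over all genes tested. Tested genes had a value above 1 in at least 4 of the 9 HFD libraries, 3 of the 8 chow libraries, or 3 of all 17. Tools were R 4.3.3, limma 3.58.1, edgeR 4.0.16, DESeq2 1.42.0, SciPy 1.17.1 and pandas 2.3.3. A simulation for the HFD comparison held 13964 genes, 100 of them changed by 1 and 100 by 2 on the log2 scale. On these simulated data limma recovered 89% and 100% of the changed genes, with 7 false calls. In the real comparison 50.9% of the tested genes were called, a far larger share than was changed in the simulation. The simulated figures therefore do not give the recovery or the false-call rate of the real comparison.

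The members and the 39 gene lists were chosen with earlier results of these data known. Named are Pomc, Cartpt, Agrp, Npy and Lepr, the 15 largest rises and falls without overlap, genes drawn from among each list's first 4 members, its members past the threshold with a change of at least 2 and the 3 with the smallest p, and 5 interaction genes in each direction. Tbx3, Nr5a1, Prdm12, Six3, Dbi, Thra, Atf4, Trib3, Pcna, Mcm4, Dll1, Dlk1, Peg3, Ezh1, Glra2, Gria1, Hcn2, Unc13b, Nrp1, Nfasc, Tuba1a, Pdgfra, Cspg4, Hepacam (in the HFD comparison), Nr4a2, Dapk3 and Ano8 were named after their values were seen. Gene positions and exonic lengths are from GENCODE M21, which matched 99.1% of the symbols. Alternatives were other pseudocounts, filters, scalings and priors, all 17 libraries in 1 fit, a replicate block, and each library left out. A few genes that the naming rule covers are not reported here.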

Additional observations from a re-analysis of the deposited data

Results flagged for a closer look

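For each gene named above, Dixon's gap ratio on log2(value + 1) compared the highest and the lowest library of each HFD group with the rest. At the 95% level 48 libraries stood apart over the 374 groups examined. Values in brackets below are in units. The 95% level marks about 1 in 20 groups where values are independent and normal. Some genes here were named after their values were seen, and their values move together, so the 48 cannot be set against that rate. Of the 48, 30 were P0 replicate 5. It stood above the other P0 libraries for Aldoa (712.54), Asb4 (184.73), Cxadr (632.11), Gria1 (213.11), Hsp90b1 (457.15), Hspa5 (507.82), Irs4 (211.71), Ldha (744.37), Mobp (0.76), Nfasc (124.61), Npy (178.7), Npy1r (32.45), Nr5a1 (61.32), Opalin (0.23), Pdia3 (570.81), Pdia6 (248.05), Scg2 (1563.9), Snap25 (709.73), Stxbp3a (213.84), Syn1 (431.64), Tbx3 (218.85), Tpi1 (500.3), Tubb4a (1011.43), Unc13b (2764.54) and Vgf (120.69). Pomc, highest at P0 in this library (1057.28), was not flagged on the log2 scale. It stood below them for Atf4 (82.54), Lhfp (34.93), Nes (10.24), Sbk1 (308.61) and Sox4 (67.67).

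Single libraries stood apart from the rest of their group for these other genes. P0 replicate 1 lay above the others of its group for Oxt (14.44) and Stat3 (77.53). P0 replicate 3 lay below the others of its group for Ncan (272.84). P0 replicate 4 lay above the others of its group for Scn1a (34.3). P21 replicate 1 lay above the others of its group for Dcx (8.63) and Gad2 (324.12) and below them for Dapk3 (2.17). P21 replicate 2 lay above the others of its group for Dlx1 (5.55), Lhfp (23.43) and Top2a (4.1). P21 replicate 3 lay above the others of its group for Mcm4 (20.52) and below them for Ptprn (531.42) and Slc12a5 (134.48). P21 replicate 4 lay above the others of its group for Igf2bp1 (0.33) and below them for Cdk1 (0.43), Fabp7 (23.52), Mapt (402.1) and Tac2 (62.87).

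The change from P0 to P21 differed between the diets for 4 genes by limma's interaction test over 17 libraries. On the log2 scale the HFD change minus the chow change was 2.21 for Heatr8 (adjusted p = 0.00618), 2.14 for Tmtc4 (adjusted p = 0.0314), -1.79 for Hepacam (adjusted p = 0.0106) and -2.84 for Col11a2 (adjusted p = 0.00618).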

How the results depend on the processing

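With a log2 change of at least 1 required by limma's treat test, 593 genes were higher and 601 lower at P21 in HFD offspring. Leaving out each library in turn gave 3117 to 3998 higher and 3248 to 4121 lower genes there, 1978 to 2688 and 1934 to 2521 in chow offspring, and 1 to 301 and 1 to 256 for the interaction, each upper end of the HFD and interaction ranges being the fit without HFD P0 replicate 5. On the recovered reads of the HFD comparison edgeR called 3318 higher and 3463 lower and DESeq2 3603 and 3757. For the interaction, equal column sums gave 7 lower genes and no intensity trend gave 1 higher and 1 lower.

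Same-numbered P0 and P21 libraries of the HFD offspring did not deviate together, with correlations of -0.046, 0.125, 0.07 and 0.006, and not every library correlated best with its own number. With the replicate number as a block the HFD comparison gave 3991 higher and 4157 lower genes and the interaction 65 and 68. P0 replicate 5 has no partner at P21, so the block takes it out of the age difference in the HFD comparison. In the interaction fit the block joined same-numbered libraries of both diets and ages, a tie that the labels do not give. The interactions of Dazap2, Lhfp, Carhsp1, Ethe1, Dgkk and Nfyb passed with the block (adjusted p = 0.0164 to 0.0364) and without HFD P0 replicate 5, and that of Dazap2 passed in 9 alternatives in all (adjusted p = 0.00534 to 0.0489). Unc13b (-0.26, not past the threshold) reversed to a rise of 0.41 that passed with the block (adjusted p = 0.0149) and to 0.41 without P0 replicate 5, which did not pass (adjusted p = 0.128), and ranged from -0.57 to 0.41 over the libraries left out.

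Depth limits values under about 0.1 units, the worth of 3 reads in these libraries. The summed signals cannot separate a change per cell from a change in the mix of cells.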
